A study of Drosophila melanogaster with 4 samples.

Results

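The wide TCF peaks were those at least 1500 bp long on 2L, 2R, 3L and 3R, the 4 arms of the large autosomes of Drosophila melanogaster. They numbered 336 of the 3930 peaks on these arms and of the 4589 peaks of the whole list. They were chosen by their width in the deposited list, so the width is a description and not a finding. The score and any fold over background come from the same peak calls as the width and are likewise described without a test. The data were ChIP-seq, in which cross-linked chromatin is precipitated with an antibody and its DNA is sequenced. Chromatin came from whole embryos of 0 to 8 h of a strain named Y cn bw sp, of unknown sex, and the list does not tell which cells of the embryo a peak came from. The antibody was a crude rabbit polyclonal serum against the N-terminus of TCF. There were 2 ChIP libraries and 2 input libraries, input meaning chromatin DNA that was not precipitated. Both kinds of library carried the same alleles, namely y[1], cn[1], bw[1] and sp[1], which mark the strain, together with oc[R3.2], CG33964[R4.2] and lab[R4.2], and MstProx[1], LysC[1], GstD5[1], Rh6[1], Gr22d[1] and Gr22b[1]. The protocol in the labels also names a later egg-laying window than the stage label of 0 to 8 h, which was the one used here.

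TCF, encoded by the gene pangolin, belongs to the TCF/LEF family of proteins, which bind DNA through an HMG box. In cells that receive the Wingless (Wnt) signal it recruits Armadillo, the fly beta-catenin, and target genes are activated. In cells without the signal it works with the corepressor Groucho to keep them off. Wingless response elements often carry several TCF sites close together. A peak caller joins neighbouring positions above its threshold into 1 peak, so a wide peak can cover 1 or several places of binding. The list gives a start, an end and a score for each peak, and no position of binding inside it.

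Wide peaks held a large part of the bound length, as a rule on width entails. They made up 8.55% of the peaks on the large autosomes (95% exact Clopper-Pearson interval 7.69 to 9.47) and 28.1% of the covered bases, 794 kb of 2824 kb. Most were not far above the threshold. The median width was 1956 bp, with an interquartile range of 1697 to 2518 bp. From 1500 to 2000 bp there were 178 peaks (53.0%), from 2000 to 3000 bp there were 105 (31.2%), from 3000 to 5000 bp there were 43 (12.8%), and 10 (2.98%) were at least 5000 bp long. The widest was 20.4 kb long. Intervals of shares of peaks, here and below, treat peaks as independent and cover counting error alone. The list holds 1 value per peak for all libraries, so replicate error cannot be given for any value, and library depth is unknown.

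The threshold cut through a continuous range of widths. The narrowest member, 1500 bp long, lay at 2R:18689756-18691255 with a score of 60.13. A pair of 1506 bp followed, at 2L:1006967-1008472 with a score of 213.22 and at 2R:5369200-5370705 with a score of 73.70. Just under the threshold were 2L:18930605-18932101 with 1497 bp and a score of 34.27, 2R:6445151-6446646 with 1496 bp and a score of 33.38, and 2L:14445429-14446922 with 1494 bp and a score of 44.58.

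The wide peaks were high as well as long, but their heights ranged over most of the scale. Their scores, deposited by the authors without a named scale, ran from 13.69 to 730.46 with a median of 87.57 (interquartile range 49.1 to 195.9). The 3594 narrower peaks on the same arms ran from 6.02 to 904.92 with a median of 14.63 (interquartile range 10.7 to 25.8). Of the wide peaks, 1 lay below the median of the narrower ones, while 170 narrower peaks (4.73%) lay above the median of the wide ones. These cut-offs differ, so the counts do not show at which end the groups overlapped more. Scores from 20 to 50 held 80 wide and 854 narrower peaks, and scores of 200 or more held 83 and 42.

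The score could be turned into a height. For most peaks it equals -log10 of a Poisson tail at 1 expected pileup, which was fitted, so that the pileup behind the score is known to within 1, and with it a fold over that expectation. The expectation is 1 value for all of these peaks and not the input at each place. Such a fold was had for 320 of the 336 wide peaks. Its median was 4.15-fold, from 2.01-fold to 13.8-fold, against 2.05-fold for 3381 narrower peaks. At least 3-fold was reached by 259 wide peaks (80.9%), where the share of all peaks on the large autosomes was 19.4%. At least 5-fold was reached by 117 (36.6%, against 5.4% of all), at least 8-fold by 43 (13.4%, against 1.76%) and at least 10-fold by 14 (4.38%, against 0.567%). The rule used the same peak calls, and nothing is read from these shares.

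**Figure D1:**
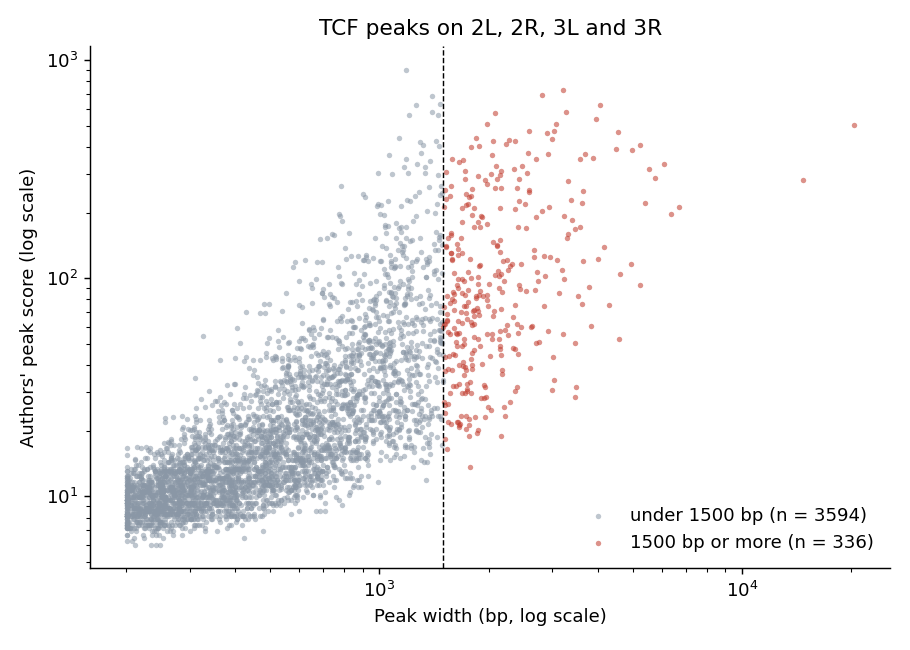
Width in bp against the authors' score for each of the 3930 TCF peaks on 2L, 2R, 3L and 3R, both axes on a log scale, with peaks of 1500 bp or more in red and a dashed line at 1500 bp. Scores spread widely at similar width on both sides of the line, from 11.88 to 904.92 at 1000 to 1500 bp and from 13.69 to 510.90 at 1500 to 2000 bp.

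Among the wide peaks, longer ones had higher scores at the median, with wide overlap. Spearman's rho between width and score was 0.35 across the 336 wide peaks and 0.77 across the 3594 narrower ones. These are descriptions, since both values of a peak come from 1 pileup and 1 threshold. The sets were cut on width, which limits its range in each, so the 2 values are not compared. The median score was 68.8 for members under 2000 bp, 107.5 from 2000 to 3000 bp, 153.1 from 3000 to 5000 bp and 285.4 above that. Within each of these classes the scores spread widely. The class from 3000 to 5000 bp ran from 28.67 to 730.46, and of the 52 peaks of at least 3000 bp with a fold, 20 (38.5%) stayed under 5-fold while 16 (30.8%) reached 8-fold or more.

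Peaks with a high score were often, but not always, wide. Score and width come from the same peak calls, so this is a description. Of the 100 peaks with the highest score on the large autosomes, 67 were wide, and of the highest 10, 5 were. The share over all peaks on these arms was 8.55%. Among all peaks scored at 200 or more, 83 of 125 (66.4%) were wide, and the share was 40.1% from 100 to 200, 29.2% from 50 to 100, 8.57% from 20 to 50 and 0.254% (6 of 2361) under 20. The peak with the highest score of all, 904.92, belonged to the narrower group, and so did 7 of the 21 peaks at 10-fold or more.

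The highest wide peak, 3R:7603468-7606673, was 3.21 kb long and reached 13.8-fold (95% exact Poisson interval 12.9 to 14.7, counting error only). The next was 2L:478859-481658, 2.80 kb long, at 13.3-fold (12.5 to 14.2). Their intervals overlap. At 2R:7083463-7087524, a peak of 4.06 kb reached 12.5-fold (11.7 to 13.3). Then came 2R:9452909-9456186, of 3.28 kb, at 11.9-fold (11.1 to 12.7), and 3R:24982529-24984614, of 2.09 kb, at 11.8-fold (11.0 to 12.6). The remaining members of the highest 10 ran from 10.5-fold to 11.3-fold, with intervals that overlap one another. By score, these were 2R:4127168-4131116, 3L:15527296-15529271, 2R:3374949-3378014, 3L:16004682-16025057 and 3R:20998466-21001051. Their widths ran from 1.98 kb for 3L:15527296-15529271 to 20.4 kb for 3L:16004682-16025057. These peaks were chosen by score, so their heights were bound to lie close together, and the spread of widths is not set against that of heights.

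Low, long peaks formed the other end. The 5 wide peaks with the lowest score were 3L:5975975-5977752 with a score of 13.69, 3R:20915427-20916959 with 16.55, 2R:7502565-7504084 with 18.30, and 2R:3416568-3418727 and 3R:19607526-19609295 with 19.01 each. Folds of the 4 that had one lay between 2.01 and 2.23, close to the median of the narrower peaks. At 2R:3416568-3418727 this low signal extended over 2.16 kb. Among the 5 widest peaks of each arm that had a fold, the lowest was 3R:17465922-17470503, with 4.58 kb at 3.29-fold (2.88 to 3.74). This was low only beside other wide peaks, whose median was 4.15-fold. The median of the narrower peaks was 2.05-fold, and 19.4% of all peaks on these arms reached 3-fold.

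The 2 longest wide peaks were single peaks on 3L and on 2L. On 3L the widest peak, 3L:16004682-16025057, was followed by peaks of 6.72 kb at 3L:19034044-19040763, 5.74 kb at 3L:16035443-16041184, 4.97 kb at 3L:542541-547511 and 4.48 kb at 3L:620812-625293. These had heights of 6.52-fold, 7.79-fold, 9.24-fold and 9.31-fold. On 2L the widest spanned 14.7 kb at 2L:3815365-3830103, at 7.67-fold. Behind it stood 2L:14459246-14465630 with 6.38 kb at 6.27-fold, 2L:21618535-21624060 with 5.53 kb at 8.20-fold, 2L:14481654-14486882 with 5.23 kb at 9.59-fold and 2L:1073167-1077724 with 4.56 kb at 10.4-fold.

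No peak on 2R or 3R came near the 2 longest, and neither did any other peak on 2L or 3L. On 2R the 5 widest were 2R:20930933-20937017 with 6.08 kb at 8.49-fold, 2R:19464504-19469434 with 4.93 kb at 4.77-fold, 2R:7083463-7087524, 2R:4127168-4131116 with 3.95 kb at 11.3-fold, and 2R:9442149-9445785 with 3.64 kb at 7.19-fold. On 3R, 3R:4633462-4638877 spanned 5.42 kb at 6.71-fold and 3R:17239491-17244707 spanned 5.22 kb at 4.27-fold. After them came 3R:17280240-17284848 with 4.61 kb and a score of 104.60, which has no fold, 3R:17465922-17470503, described above, and 3R:11465372-11469526 with 4.16 kb at 5.20-fold. None of the 5 widest on 3R was among the 10 highest wide peaks, while 2 of those on 2R were.

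Wide peaks had other peaks close by. The nearest other peak, measured from edge to edge, lay at a median of 697 bp, against 1400 bp for the narrower peaks. Another peak lay within 1000 bp of 189 wide peaks (56.2%, 95% exact interval 50.8 to 61.6) and of 44.8% of the narrower ones (43.1 to 46.4). Within 5000 bp the shares were 78.9% (74.1 to 83.1) and 69.5% (68.0 to 71.0), and a neighbour on both sides was found for 43.8% (38.4 to 49.2) and 28.7% (27.2 to 30.2). These intervals do not overlap, but no test of the differences was run, and grouped peaks are not independent. No 2 peaks on these arms lay closer than 47 bp.

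Wide peaks had a neighbour within 1000 bp more often than narrower peaks of similar score. Among narrower peaks, the share with another peak within 1000 bp was 48.3% at scores under 20, 39.1% from 20 to 50, 38.7% from 50 to 100, 28.0% from 100 to 200 and 38.1% at 200 or more. For wide peaks of the same classes it was 66.7% (6 peaks), 61.3%, 53.0%, 56.7% and 54.2%. At this gap the share was higher for wide peaks in each of the 5 classes. The exact intervals lay apart from 20 to 50 (49.7 to 71.9 against 35.8 to 42.5) and from 100 to 200 (44.0 to 68.8 against 19.5 to 37.9), and overlapped in the other 3. For scores under 20 the order was reversed at other gaps, with 66.7% against 73.0% within 5000 bp and 16.7% against 19.3% within 200 bp. For scores of 200 or more the shares within 200 bp were nearly equal, 21.7% and 21.4%. Elsewhere wide peaks had the higher share at these gaps too. A caller can break a long stretch into a wide peak and short pieces beside it, and the part of such pieces in these shares was not tested.

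**Figure D2:**
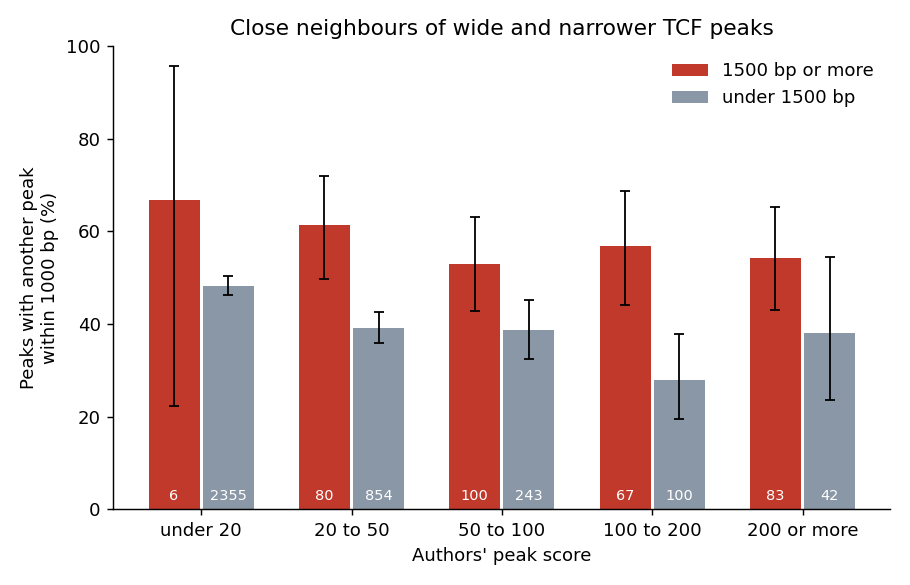
Percentage of wide peaks (red) and narrower peaks (grey) on the large autosomes that had another peak within 1000 bp, edge to edge, by class of score. Error bars are 95% exact binomial intervals and the number at the foot of each bar is the number of peaks; wide peaks sit at 53.0% to 66.7% and narrower ones at 28.0% to 48.3%.

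The neighbours themselves were mostly short and weak, as were the peaks on these arms in general. Within 1000 bp of the 189 wide peaks lay 244 neighbours, counted once for each wide peak. Their median width was 490.5 bp and their median score 13.38, against 505.5 bp and 15.93 for all peaks on the large autosomes. Of the 244 neighbours, 34 (13.9%, against 8.55% of all peaks on these arms) were wide themselves. A higher score than the wide peak they adjoined was found for 30 (12.3%). Where 2 wide peaks adjoined, each was counted as the neighbour of the other. Unless their scores were equal, 1 of the 2 was then bound to be among the 30. The share for narrower neighbours alone was not computed. When peaks with gaps of at most 5000 bp were put into groups, 195 groups of 2 or more peaks held a wide peak, and in 172 of them (88.2%) the peak with the highest score was wide. In the 153 groups with exactly 1 wide peak, it had the highest score in 133 (86.9%). Wide peaks were 25.2% of the 1050 peaks in the 195 groups. Score and width go together by construction, and the share is a description.

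Groups of 3 or more peaks held a wide peak more often than smaller ones. Of the 1167 peaks that stood alone 6.08% were wide, and a wide peak was found in 11.5% of groups of 2, in 23.6% of groups of 3 or 4, in 54.8% of the 126 groups of 5 to 9 and in 19 of the 21 groups of 10 or more. More members give more chances, so the share per peak is the fairer value. It was 6.08% for single peaks, 6.02% in groups of 2, 8.03% in groups of 3 or 4, 11.8% in groups of 5 to 9 and 16.7% (95% exact interval 12.8 to 21.2) in groups of 10 or more.

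Wide peaks with and without neighbours had similar scores. The 71 wide peaks with no other peak within 5000 bp had a median score of 87.57, the 118 with a neighbour on 1 side 88.19 and the 147 with neighbours on both sides 85.10. Their interquartile ranges, 50.9 to 199.5, 55.4 to 205.1 and 39.8 to 189.1, overlapped almost fully. The 20.4 kb peak belonged to the first of these sets, its nearest neighbour being 5.63 kb away.

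A few wide peaks were isolated on a large scale. No other peak lay within 20 kb of 19 wide peaks (5.65%), against 10.7% of the narrower peaks. The most isolated was 3L:10509145-10510929, 1.78 kb long at 3.01-fold, with 164.6 kb to the peak before it and 141.4 kb to the one after. The peak at 3R:13751522-13753167 (3.57-fold) stood 99.3 kb from its nearest neighbour, that at 3L:8306982-8308561 (5.05-fold) 79.9 kb, and that at 2L:15838414-15840050 (3.19-fold) 64.5 kb. The peak at 3R:24982529-24984614, one of the 10 highest, was also among these, at 68.7 kb. The heights of these 5 isolated peaks thus ran from 3.01-fold to 11.8-fold. The lowest of them was low only beside other wide peaks, since 19.4% of all peaks on these arms reached 3-fold.

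Most wide peaks stood apart from one another on the scale of 10 kb. The median gap from a wide peak to the next on its arm was 95100 bp, where that between neighbouring peaks of any width was 4964 bp. Wide peaks were 336 of 3930, so longer gaps between them follow from their number. The 2 medians therefore do not show whether wide peaks are spread out or clustered, and clustering was not tested. The gaps were uneven, with an interquartile range of 14541 to 382027 bp. Of the 332 gaps, 70 were at most 10 kb, and in 30 of these 70 no narrower peak lay between. With gaps of up to 10 kb allowed, 116 wide peaks (34.5%) fell into 46 runs of 2 or more, of which 14 had at least 3 members and 5 had at least 4. The other 220 stood alone on this scale.

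The longest run, on 2L at 14447288 to 14486882, held 7 wide peaks over 39.6 kb and 5 narrower ones, and wide peaks covered 60.5% of it. Its members' scores, in order along the arm, were 119.59, 27.02, 149.44, 197.05, 31.64, 38.36 and 410.65. High and low wide peaks were interspersed, and the highest was the last. The second run began with the 14.7 kb peak on 2L and reached from 3815365 to 3844117, where 4 wide peaks covered 77.0% of 28.8 kb. Their scores were 281.45, 24.23, 76.65 and 108.83, the first and longest being the highest.

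The third run, on 2R at 9442149 to 9467864, held 6 wide peaks over 25.7 kb, with scores of 251.79, 75.47, 29.93, 578.63, 208.33 and 125.81, so that its top lay inside. The next runs by length, on 2L at 14539205 to 14563049 and at 14497372 to 14520903, held 4 wide peaks each, over 23.8 and 23.5 kb. The scores were 283.22, 229.76, 51.12 and 138.54 in the former. In the latter they were 52.67, 21.19, 23.45 and 259.55, and a narrower peak of 1368 bp scored 125.11. Of the 5 longest runs, 3 lay between 14447288 and 14563049 on 2L.

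**Figure D3:**
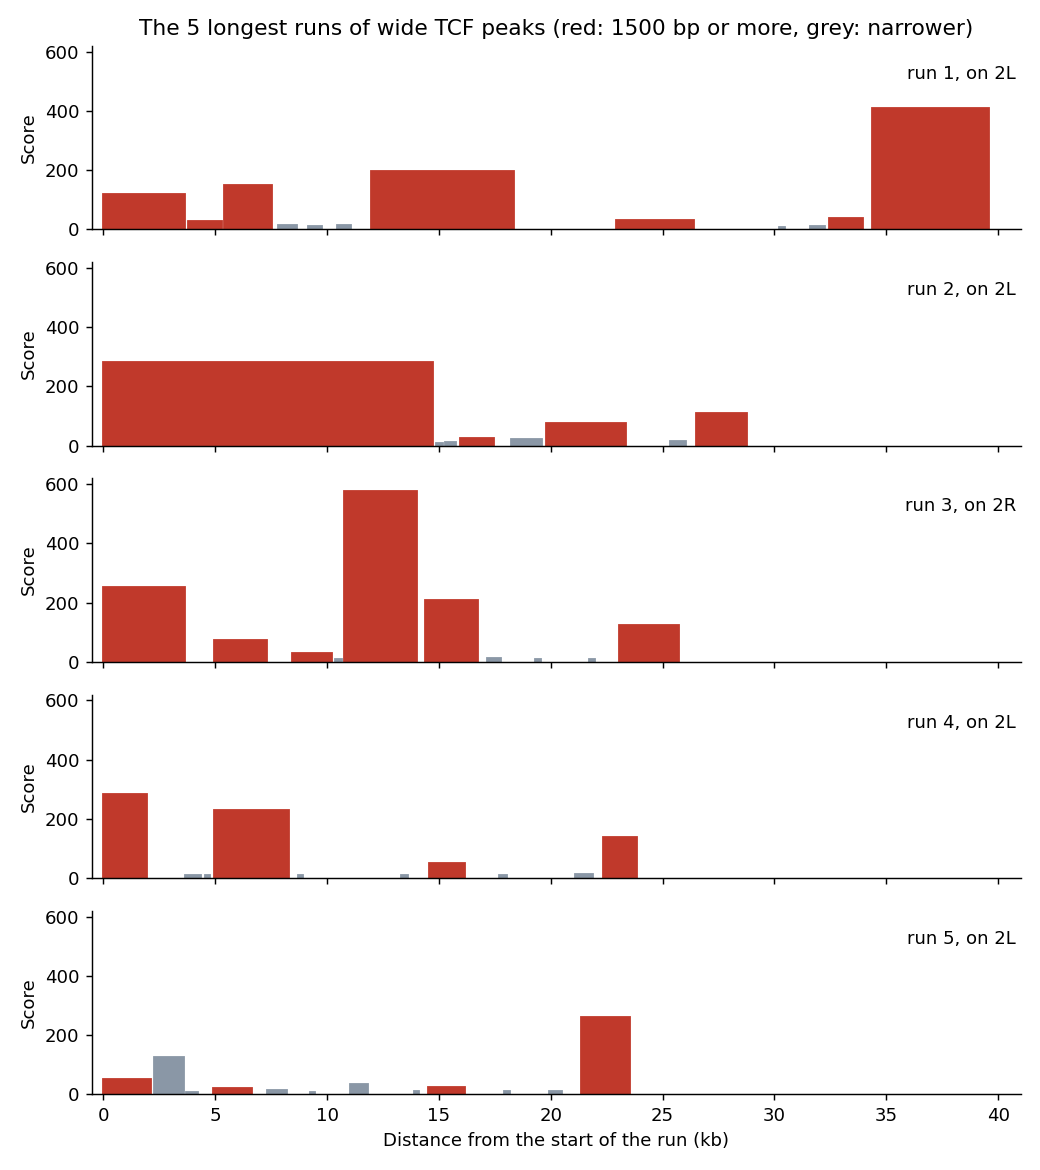
The 5 longest runs of wide peaks, each box a peak drawn to scale from its start to its end in kb from the start of the run, with the authors' score as its height (the score is 1 value per peak, not a profile). Red boxes are wide peaks and grey boxes narrower ones; in each run the highest box is red, with scores of 410.65, 281.45, 578.63, 283.22 and 259.55.

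Some pairs of wide peaks nearly touched. On 3R, the peaks at 17239491 to 17244707 and 17244766 to 17247349 were 58 bp apart and together spanned 7859 bp, the first at 4.27-fold and the second, of 2584 bp, at 7.17-fold. On 3L, the peaks at 16035443 to 16041184 and 16041245 to 16043915 were 60 bp apart, at 7.79-fold and 5.13-fold. The next pairs shared a peak on 2L, at 14451077 to 14452586 with a height of 2.52-fold. It lay 99 bp from a peak of 5.41-fold and 145 bp from one of 4.82-fold. Another pair, 163 bp apart on 3R, joined the peaks at 20913550 to 20915263 and 20915427 to 20916959, with scores of 74.88 and 16.55.

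Windows with wide peaks also held more narrower peaks. Of 953 windows of 100 kb, 216 (22.7%) held a wide peak, and these held 44.3% of all narrower peaks. The median number of narrower peaks was 2 in the 737 windows with no wide peak, 5 in the 145 windows with 1, 7 in the 41 with 2 and 11.5 in the 30 with 3 or more. The interquartile ranges were 0 to 4, 3 to 8, 4 to 11 and 7 to 17.5, so that neighbouring classes overlapped. Up to 18 narrower peaks were found in a window with no wide peak, and 0 in some windows with 1 or 2 wide peaks.

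The window at 14400001 to 14500000 on 2L held the most wide peaks, 9 with 28.4 kb in all, beside 24 narrower peaks. The next window on 2L, at 14500001 to 14600000, held 7, also beside 24 narrower ones. On 2R, the window at 9400001 to 9500000 held 6 wide peaks beside 8 narrower ones. A further 6 windows tied with 4 wide peaks. Of these, 4 lay on 3R, at 800001 to 900000, 900001 to 1000000, 17200001 to 17300000 and 20900001 to 21000000, 1 on 2L at 3800001 to 3900000 and 1 on 2R at 4500001 to 4600000.

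**Figure D4:**
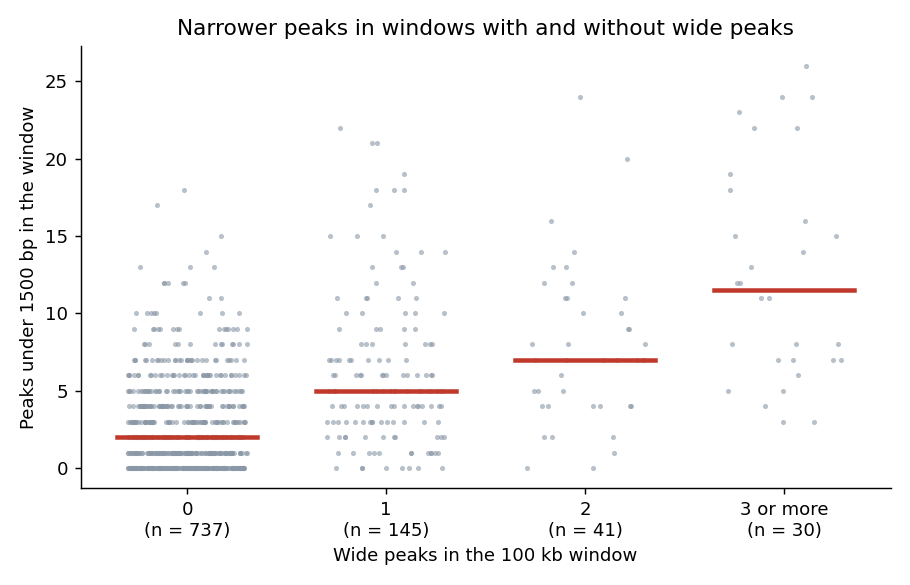
Number of peaks under 1500 bp in each 100 kb window of the large autosomes (points, spread sideways for display), by the number of wide peaks in the window, with the median of each class as a red line. Medians are 2, 5, 7 and 11.5 for windows with 0, 1, 2 and 3 or more wide peaks, and the classes overlap.

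Long stretches had TCF peaks but no wide one. The longest between wide peaks on each arm measured 2359 kb on 2R, from 14550888 to 16910105, 2302 kb on 3L, from 733996 to 3036377, 2048 kb on 2L, from 9957921 to 12005523, and 1644 kb on 3R, from 12107541 to 13751521. They held 76, 76, 68 and 49 narrower peaks. The highest scores in them were 121.65 on 2R, 297.52 on 3L, 249.22 on 2L and 402.80 on 3R, all above the median of 87.57 of the wide peaks.

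The 4 large arms had between 3.09 and 4.22 wide peaks per Mb. Per Mb there were 4.22 on 2L (96 peaks, 95% exact Poisson interval 3.42 to 5.16), 3.55 on 2R (75 peaks, 2.79 to 4.45), 3.33 on 3R (93 peaks, 2.69 to 4.08) and 3.09 on 3L (72 peaks, 2.41 to 3.89), with arm length taken to the end of the last peak. All 4 intervals overlap, which does not show that the densities are equal. The difference between arms also depended on the width threshold. Densities on 2L and 3L were 2.29 and 1.24 per Mb at a threshold of 2000 bp, and 9.41 and 9.17 at 1000 bp. Wide peaks were 9.93%, 8.31%, 8.68% and 7.27% of the peaks on 2L, 2R, 3R and 3L, again with overlapping intervals. Their median score was 98.0 on 2L, 93.2 on 3R, 83.9 on 3L and 70.8 on 2R. For comparison, X held 20 peaks of this width, 0.899 per Mb (0.549 to 1.39) and 4.18% of its peaks (2.57 to 6.38), with a median score of 163.2. Chromosome 4 held 7, or 5.59 per Mb (2.25 to 11.5) and 5.19% of its peaks (2.11 to 10.4). The interval of X lay below those of the 4 large arms per Mb, while as a share of peaks it overlapped that of 3L (5.73 to 9.07). No test was run, and the lower copy number of X in males was not corrected for in scores or widths.

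**Figure D5:**
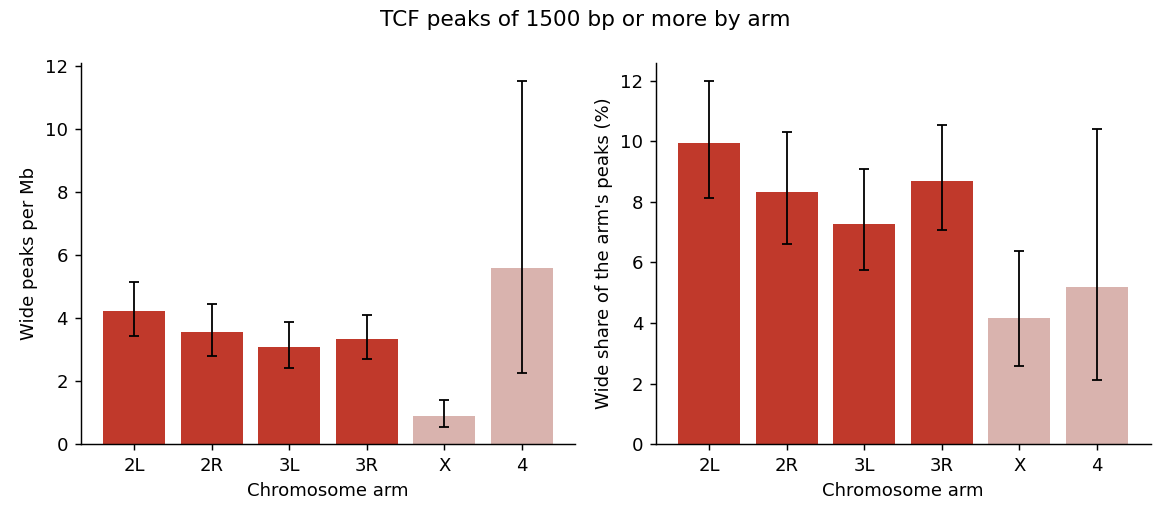
Peaks of 1500 bp or more on each arm, per Mb (left, with 95% exact Poisson intervals) and as a percentage of all peaks of the arm (right, with 95% exact binomial intervals), the large autosomes in dark red and X and 4 in light red. The 4 large arms lie between 3.09 and 4.22 per Mb with overlapping intervals, and X lies at 0.899.

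Along the arms the wide share of peaks was uneven. With each arm divided into 5 equal parts, it ran from 4.11% (6 of 146 peaks) to 18.5% (31 of 168) on 2L, the latter in the fourth part, which holds the longest run. On 3R it ran from 4.57% to 13.2% (33 of 250, also in the fourth part) and on 2R from 3.27% (5 of 153) to 12.3% (27 of 219). On 3L the range was smaller, from 5.31% to 8.21%.

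For 16 wide peaks the score departed from the single expectation, and their height is not known. These peaks scored 16.55 to 191.17, with a median of 56.0 against 88.2 for the 320 others. Another peak lay within 1000 bp of 87.5% of the 16 and of 54.7% of the 320. Among narrower peaks the order was the other way, with 38.0% of 213 and 45.2% of 3381. The 5 with the highest score were 2R:18686634-18688553 with 191.17, 3R:11404889-11407005 with 142.13, 2R:2494453-2497401 with 125.57, 2L:3841856-3844117 with 108.83 and 3R:17280240-17284848 with 104.60.

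How many wide regions there are depends on where peaks are cut. When peaks closer than 200 bp were joined first, 400 regions reached 1500 bp. Of these, 328 contained a wide peak, 7 of them more than 1, and 72 were made up of narrower peaks alone. When peaks closer than 1000 bp were joined, 634 regions reached 1500 bp, of which 305 contained a wide peak and 329 did not. The regions from narrower peaks alone were weaker, with a median top score of 44.3 at 200 bp and 34.3 at 1000 bp.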

How the data were processed

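The deposited file is 1 peak list for 2 TCF ChIP and 2 input libraries of whole embryos. It is on FlyBase release 5 and names MACS as its source, per the file headers. The submitters' processing notes name the build BDGP5 and, with no roles, MACS2, BWA and CASAVA (1.7.0.2 and 1.7.0.3). The sources used here do not give the threshold, the filters or any pooling of replicates. The score is deposited by the authors without a scale. Expected pileups from 1 to 400 were searched for the Poisson tail that matched most scores within 0.01. At 71.7 this was 94.7% of the 4589 peaks, and 37.7% at the best value more than 1% away. Wide peaks, gaps between edges, groups, runs and windows were then computed with Python 3.11.15, NumPy 2.4.6, SciPy 1.17.1 and pandas 2.3.3, and drawn with matplotlib 3.10.9. The scripts were tested on simulated data. No hypothesis test was run, since no measure is free of the rule and there is no value per library.

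Members and lists were chosen with earlier results of these data known. By rule, the text names the 5 widest peaks per arm, the 10 highest and 5 lowest scores, the 3 peaks on either side of the threshold, the 5 most isolated, the 5 closest pairs, the 5 fullest windows with ties, the 5 longest runs and the 5 highest scores without a fold. The available gene table has coordinates of release 6, which cannot be set against these, so no peak is assigned to a gene, and the planned look at genes and motifs was not run. No genome of release 5 was used here, so no sequence is shown.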

Additional observations from a re-analysis of the deposited data

How the results depend on the processing

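Of 60 values under other settings, 28 stayed close to the reported value and 32 did not. Close meant within its interval or, for counts and densities, within 1.5 times of it. For the share of covered bases that interval, 28.06% to 28.17%, treated each base as independent. It is too narrow to be of use, and any change in that share was bound to count as not close. Other outcomes were also set in advance. The upper 50% by score kept 335 of the 336 wide peaks, so their count, scores and densities could hardly change. A lower or higher width threshold was bound to raise or lower counts and densities. The tally is therefore no measure of how firm the results are. A width threshold of 1000 bp gave 819 peaks with 48.7% of covered bases, a median score of 60.1, a median of 3.49-fold, 9.41, 8.46, 9.17 and 7.60 peaks per Mb on 2L, 2R, 3L and 3R, and 253 pairs within 10 kb. A threshold of 2000 bp gave 158 peaks, 17.3%, 121.7, 4.88-fold, 2.29, 1.80, 1.24 and 1.40 per Mb and 24 pairs, and 83.5% of these peaks had another within 5000 bp. Peaks closer than 200 bp, when joined, raised the share of bases to 34.2%. Joining peaks closer than 1000 bp gave 634 regions, 57.6%, 54.8, 3.37-fold, 6.73, 7.05, 6.47 and 6.49 per Mb and 156 pairs, and the share with another peak within 5000 bp was 61.0%, which joining lowers by construction. Among peaks in the upper 50% by score, the share of bases was 37.7% and that with a neighbour 60.6%, with fewer peaks left to be neighbours. The share with another peak within 5000 bp was higher for wide than for narrower peaks under each of these settings, least so at the 1000 bp threshold (74.7% against 69.1%). Joined regions are partly long because their peaks had neighbours, so the settings that join peaks say little on this. No paired analysis was possible because all libraries share 1 value per peak, and no replicate could be left out for that reason. Library depth is unknown, so a missing or short peak cannot be read as absent binding.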
